A study of Mus musculus with 12 samples.

Results

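The SR proteins and the heterogeneous nuclear ribonucleoproteins (hnRNPs) are the main families of RNA-binding proteins that decide which exons enter a messenger RNA. They were followed here as 29 genes, 10 with symbols that start with Srsf and 19 with symbols that start with Hnrnp, of 18193 genes measured in sorted mouse thymocytes. Members were chosen by symbol alone: a probe set counted if the array's annotation gave it exactly 1 gene symbol and that symbol began with either stem. This gave 91 probe sets of 34945, and the probe sets of a gene were averaged. Of the members, 9 rested on 1 probe set and 20 on several. The values hold no signal level, so no filter on dim probe sets was possible, and all 29 members were tested. Srsf7, Hnrnpa3 and Hnrnpa1l2-ps2 had no probe set of their own under this rule and were not analysed here.

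Total RNA of untreated thymocytes from C57BL/6 mice, taken directly from the animal without culture, had been hybridised to 12 Affymetrix mouse expression arrays, 3 for each of 4 subsets. The double-negative group (DN) was sorted as CD4-CD8a-TCRb-, the double-positive group (DP) as CD4+CD8a+, the CD4 single-positive group (CD4SP) as CD4+CD8a-TCRbhi and the CD8 single-positive group (CD8SP) as CD4-CD8a+TCRbhi. The DN gate as described removes cells with surface TCRb but names no marker against cells of other lineages. The labels give no age and no sex, and do not say whether the 3 arrays of a group came from separate mice, so p-values measure the spread between arrays, which may be technical. Because the arrays measure bulk RNA, fewer cells of a type and less RNA per cell cannot be told apart.

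In the thymus, DN cells rearrange the T-cell receptor beta chain, proliferate and become DP cells, which are the bulk of the organ. DP cells that pass selection become CD4SP or CD8SP cells. SR proteins carry an arginine-serine-rich tail and generally bind exonic enhancers, where they recruit the spliceosome, while hnRNPs coat nascent transcripts and often act against exon inclusion. A textbook T-cell target is Ptprc, which encodes CD45: Hnrnpll and its paralogue Hnrnpl promote skipping of its variable exons as T cells mature and are activated.

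Values are on a log scale, read as log2, with each probe set set to 0 at its average over the DP arrays, so DP averages 0 for every gene and a level cannot be compared between genes. A gene is said to have risen, fallen or been called where limma gave an adjusted p under 0.05 over all 18193 genes. The sort genes followed the labels: Cd4 lay between -6.49 and -3.88 in DN arrays and between -9.20 and -8.39 in CD8SP arrays, and Cd8a between -6.84 and -6.35 in CD4SP arrays, against about 0 in DP. DN replicate 1 and CD8SP replicate 1 stood apart, with array weights of 0.527 and 0.276 where the other 10 arrays had 0.694 to 1.81. The DN arrays held markers of other lineages: the mean over 12 myeloid and dendritic cell markers lay between 2.60 and 4.12 in DN arrays and between -0.23 and 0.19 in DP arrays. The mean over 7 natural killer and innate lymphoid markers lay between 1.86 and 3.16 in DN arrays, against -0.08 to 0.08 in DP arrays, and that over 7 B cell markers between 0.74 and 2.70, against -0.08 to 0.05. The mean over 3 gamma delta T cell markers, whose cells the DN gate does not name, lay between 3.05 and 3.67 in DN arrays, against -0.14 to 0.19 in DP arrays. Whether the RNA of these 4 lists came from other cells or from DN thymocytes themselves was not tested. The CD8SP arrays had 2.17 to 2.42 for the natural killer and innate lymphoid list, whose genes include some that T cells also use.

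Most SR and hnRNP genes were lower in single-positive than in double-positive thymocytes. In CD4SP against DP, 18 members fell, 1 rose and 10 did not pass the test. In CD8SP against DP, 25 fell, 1 rose and 3 did not pass. Of all 18193 genes, 16.2% fell and 16.4% rose in CD4SP, and 20.9% fell and 18.2% rose in CD8SP. Among the members, 62.1% fell in CD4SP and 86.2% fell in CD8SP. The median difference over the 29 members was -0.37 in CD4SP minus DP, where the median of all genes was 0.04, and -0.56 in CD8SP minus DP, where the median of all genes was 0.00. Both comparisons use the same 3 DP arrays. The median over members in single arrays ran from -0.09 to -0.01 in DN, from -0.05 to 0.03 in DP, from -0.40 to -0.31 in CD4SP and from -0.57 to -0.50 in CD8SP, so no single-positive array reached the range of the DN or DP arrays.

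Members of both families fell. In CD4SP against DP, 7 of 10 Srsf genes and 11 of 19 Hnrnp genes fell, with family medians of -0.47 and -0.36. In CD8SP against DP, 9 of 10 Srsf genes and 16 of 19 Hnrnp genes fell, with medians of -0.59 and -0.52. Most differences from DP, in either direction, were small. Those of at least 2-fold that passed the test numbered 1 of 29 in CD4SP, against 8.77% of all genes. It was the rise of Srsf12, and no fall reached 2-fold there. In CD8SP they numbered 3 of 29, against 9.56% of all genes: the falls of Hnrnpll and Hnrnph3 and the rise of Srsf12. Counted by probe set, 48 of 91 fell in CD4SP (52.7%, against 16.8% of all probe sets) and 70 of 91 in CD8SP (76.9%, against 22.8%). Those that rose were 1 in CD4SP, against 14.7% of all probe sets, and 2 in CD8SP, against 16.4%. The 3 arrays of the groups did not overlap for 23 members in CD4SP against DP (79.3%, against 49.4% of all genes) and for 26 in CD8SP against DP (89.7%, against 48.6%). Quantile normalization, which forces the narrow DP arrays onto the spread of the others, lowered the gene counts to 6 in CD4SP and 11 in CD8SP, and the share of all genes that fell to 9.10% and 8.38%. Leaving out probe sets with a within-group SD above the median raised that background. Of the 10977 genes left, 26.2% fell in CD4SP and 30.7% in CD8SP, and the medians over the members left were -0.37 and -0.54.

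**Figure D1:**
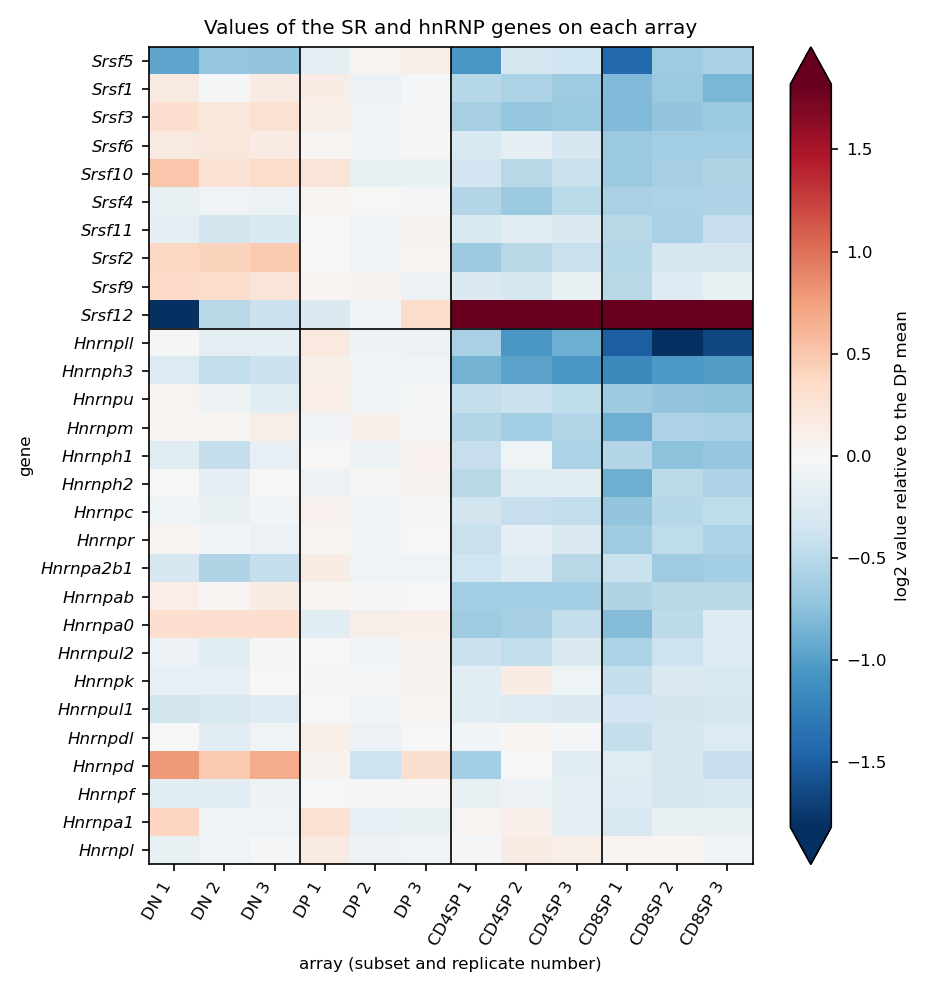
Log2 value relative to the DP mean for each of the 29 genes (rows) in each of the 12 arrays (columns, grouped as DN, DP, CD4SP and CD8SP). The colour scale ends at the largest absolute value outside Srsf12, the -1.82 of Hnrnpll. Most rows are below 0 in the 6 single-positive arrays, and Srsf12 stands out above 0.

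**Figure D2:**
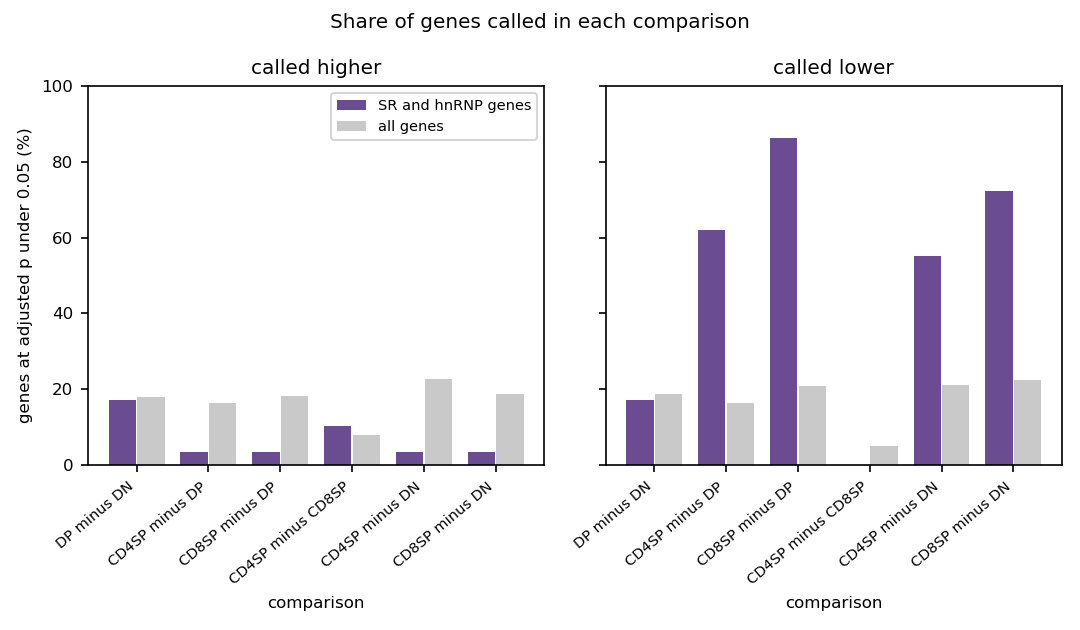
Percent of genes called higher and lower in each comparison, for the 29 members and for all 18193 genes. The share of members called lower is 86.2% in CD8SP against DP and 62.1% in CD4SP against DP.

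Promoter sequence was available for 27 of the 29 members, and Hnrnpll and Hnrnpul2 are named only. The 250 bases before the transcription start are printed for 3 members that fell in both single-positive groups and whose window lies wholly outside the annotated gene: Srsf3 (chr17:29032410-29032659, plus strand), Srsf6 (chr2:162931258-162931507, plus strand) and Hnrnpm (chr17:33685459-33685708, minus strand). They are RefSeq sequences of GRCm38.p6, written 5′ to 3′ on the strand of the gene. Capitals mark matches, on either strand, to 5 motifs: the GC box, spelled GGGCGG, the core of ETS factor sites, spelled CCGGAAG, the E-box, spelled CACGTG, the TATA box, spelled TATAAA, and the CCAAT box, spelled by its name. No motif is contained in another.
Srsf3: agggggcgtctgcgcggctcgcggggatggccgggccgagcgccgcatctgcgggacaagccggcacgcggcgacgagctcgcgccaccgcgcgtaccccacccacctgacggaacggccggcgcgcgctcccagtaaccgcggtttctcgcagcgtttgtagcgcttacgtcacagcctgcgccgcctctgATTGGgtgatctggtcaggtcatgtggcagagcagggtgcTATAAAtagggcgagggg
Srsf6: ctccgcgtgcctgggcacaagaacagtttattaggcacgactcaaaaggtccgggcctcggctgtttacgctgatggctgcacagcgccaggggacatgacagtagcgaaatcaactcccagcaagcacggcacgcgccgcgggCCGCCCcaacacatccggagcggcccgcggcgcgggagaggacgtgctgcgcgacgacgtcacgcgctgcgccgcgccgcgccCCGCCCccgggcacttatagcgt
Hnrnpm: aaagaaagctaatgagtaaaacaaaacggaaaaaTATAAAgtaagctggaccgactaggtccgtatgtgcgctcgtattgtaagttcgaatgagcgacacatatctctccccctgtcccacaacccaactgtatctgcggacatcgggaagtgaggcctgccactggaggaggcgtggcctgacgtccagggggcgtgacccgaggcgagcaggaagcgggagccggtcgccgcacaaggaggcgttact
Srsf3 holds 1 CCAAT box and 1 TATA box, Srsf6 holds 2 GC boxes and Hnrnpm holds 1 TATA box. Only the first listed start of each gene symbol was used, and 6 of the 27 members had several. The GC box was found in 21 of 27 member windows (77.8%), against 32.9% of 27025 promoters of the table. Those 27025 include genes that were not measured here. The CCAAT box was found in 14 (51.9%, against 34.5%), the ETS core in 5 (18.5%, against 7.05%), the TATA box in 3 (11.1%, against 13%) and the E-box in 1 (3.7%, against 6.05%). Member windows had a median GC content of 65.2%, against 52% over all promoters, so GC-rich motifs have more chances to match in them. The window of Srsf12, the member that rose in single-positive cells, holds 1 GC box and none of the other 4 motifs. A match describes letters and not a bound site.

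Among the SR genes, Srsf3, Srsf1 and Srsf4 fell in both single-positive groups. Srsf3 encodes the smallest classical SR protein, which also takes part in mRNA export. Its values were -0.60, -0.70 and -0.67 in CD4SP arrays and -0.80, -0.72 and -0.68 in CD8SP arrays, against 0.10, -0.07 and -0.02 in DP arrays. No single-positive array overlapped the DP range, and the differences were -0.66 ± 0.08 in CD4SP (standard error, n = 3 each; limma adjusted p = 5.96e-05) and -0.73 ± 0.08 in CD8SP (limma adjusted p = 2.33e-05). Each of its 6 probe sets was called lower in both single-positive groups. Srsf1, the founding SR protein, binds purine-rich exonic enhancers. It had -0.52, -0.57 and -0.65 in CD4SP arrays and -0.80, -0.67 and -0.83 in CD8SP arrays, against 0.13, -0.10 and -0.04 in DP arrays. The groups did not overlap, with differences of -0.58 ± 0.09 in CD4SP (limma adjusted p = 0.000533) and -0.77 ± 0.09 in CD8SP (limma adjusted p = 6.17e-05). With the highest-mean probe set of Srsf1 alone, neither passed, at -0.15 in CD4SP (limma adjusted p = 0.333) and -0.12 in CD8SP (limma adjusted p = 0.407). Here and below that mean is taken over the 12 values centred on DP. The rule thus picks the probe set standing highest relative to DP, not the brightest, and leans against a fall from DP. Srsf4, an SR protein with a long arginine-serine tail, had -0.53, -0.68 and -0.49 in CD4SP arrays and -0.59, -0.58 and -0.56 in CD8SP arrays, against 0.03, 0.00 and -0.03 in DP arrays. Both differences, -0.57 ± 0.07 and -0.58 ± 0.07, were past the threshold (limma adjusted p = 0.000113 in CD4SP).

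Srsf2, also called SC35 and a protein of nuclear speckles, was lower in CD4SP (-0.53 ± 0.09) and in CD8SP (-0.38 ± 0.09) than in DP. Both calls depend on the probe sets used: with the probe set of highest mean alone the difference was -0.17 in CD4SP (limma adjusted p = 0.243) and 0.07 in CD8SP. That probe set, 1427816_at, is the only one of Srsf2 not marked as shared between transcripts. Leaving out the marked ones therefore gave the same values and is no separate check. Srsf10, which is activated as a repressor by dephosphorylation during heat shock in other cells, fell by 0.42 in CD4SP and by 0.61 in CD8SP. With the probe set of Srsf10 that has the smallest within-group SD, the CD4SP difference was -0.15 and did not pass (limma adjusted p = 0.293). Srsf11 fell by 0.25 in CD4SP and by 0.51 in CD8SP. Srsf9, a short SR protein, fell by 0.29 in CD8SP (limma adjusted p = 0.0465), a call lost in 17 of 24 alternative settings, and its difference of -0.24 in CD4SP did not pass.

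Srsf5 varied with the array number. Its CD4SP values were -1.06, -0.32 and -0.36 and its CD8SP values -1.41, -0.64 and -0.59, against -0.16, 0.05 and 0.11 in DP arrays. In each of these groups, and in DN, array 1 was the lowest. The difference of -0.88 ± 0.24 in CD8SP passed the test (limma adjusted p = 0.0137), and that of -0.58 ± 0.24 in CD4SP did not (limma adjusted p = 0.0932). With the arrays numbered 1 as a factor in the fit, the CD4SP difference passed as well (limma adjusted p = 0.00545).

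Srsf12 was the one member that rose in single-positive cells. It encodes an SR-like protein that was described in human cells as an antagonist of other SR proteins at splice-site choice. Its values were 2.76, 3.07 and 2.85 in CD4SP arrays and 2.46, 3.22 and 3.06 in CD8SP arrays, against -0.26, -0.07 and 0.33 in DP arrays. All 6 single-positive arrays lay more than 2 log2 units above every DP array. The difference was 2.89 ± 0.45 in CD4SP, a 7.42-fold increase (limma adjusted p = 0.000463), and 2.91 ± 0.45 in CD8SP, a 7.54-fold increase (limma adjusted p = 0.000379). The 2 single-positive groups differed by -0.02 (CD4SP minus CD8SP), with a 95% interval of -1.01 to 0.96. Srsf12 rests on 1 probe set with the largest within-group SD of the 29 members, 0.62. Under the alternative that leaves out probe sets with a large within-group SD it had no value.

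**Figure D3:**
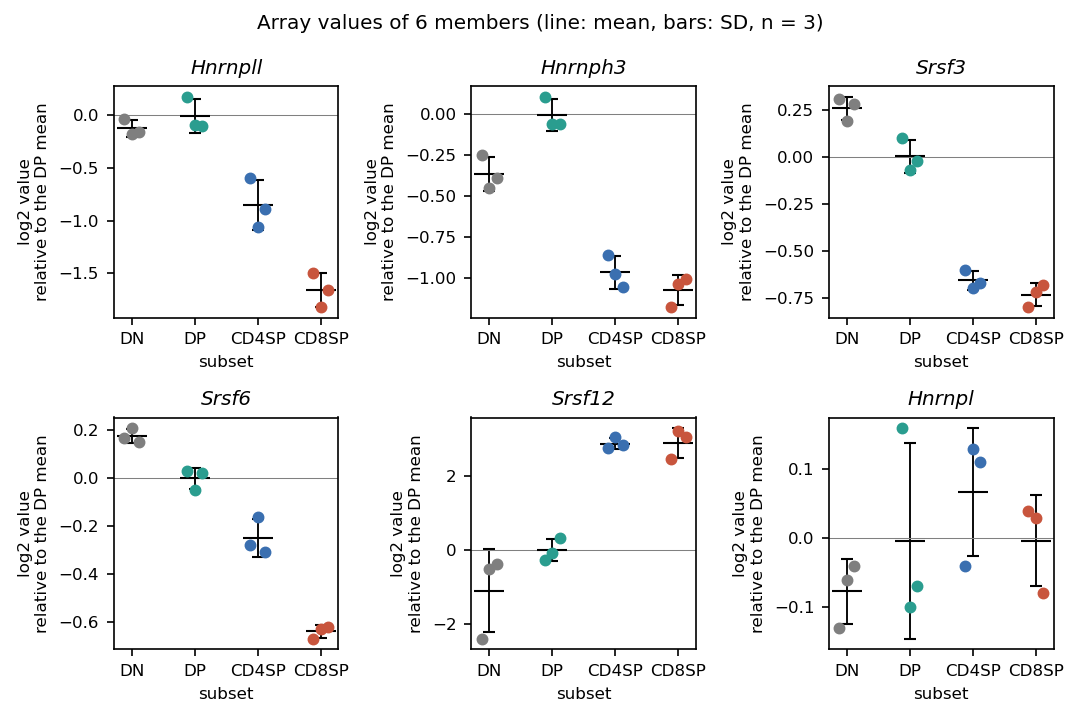
Log2 value relative to the DP mean in each array (points), with group mean (line) and SD (bars, n = 3), for 6 members, in the groups DN, DP, CD4SP and CD8SP. Each panel has its own scale. Hnrnpll is lowest in CD8SP, and Srsf12 lies above 2 in all 6 single-positive arrays.

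Hnrnpll had the largest fall of any member. In CD4SP arrays it stood at -0.59, -1.06 and -0.89 and in CD8SP arrays at -1.50, -1.82 and -1.66, against 0.18, -0.09 and -0.10 in DP arrays. The 3 groups did not overlap. Hnrnpll fell by 1.66 ± 0.13 in CD8SP, a 3.17-fold decrease (limma adjusted p = 3.63e-06), and by 0.85 ± 0.13 in CD4SP (limma adjusted p = 0.000541). Its 2 probe sets gave like values, -0.79 and -0.90 in CD4SP and -1.66 and -1.67 in CD8SP. In DN arrays it stood at -0.03, -0.18 and -0.16, and the DP minus DN difference of 0.12 did not pass.

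Its paralogue Hnrnpl gave a different picture. Averaged over its 2 probe sets it stood at -0.04, 0.13 and 0.11 in CD4SP arrays and at 0.04, 0.03 and -0.08 in CD8SP arrays, against 0.16, -0.10 and -0.07 in DP arrays. The groups overlapped, and the CD8SP minus DP difference was 0.00 with a 95% interval of -0.20 to 0.20. That mean joins probe sets that were called in opposite directions. Probe set 1424101_at stood at -0.56, -0.26 and -0.44 in CD8SP arrays, against 0.14, -0.10 and -0.04 in DP arrays, and its difference was -0.42 ± 0.11 (limma adjusted p = 0.0127 over all probe sets). Probe set 1445594_at stood at 0.65, 0.32 and 0.29 in CD8SP arrays, against 0.19, -0.09 and -0.10 in DP arrays, and its difference was 0.42 ± 0.15 (limma adjusted p = 0.0483 over all probe sets). Hnrnpl therefore has no direction in CD8SP that holds for both of its probe sets.

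Of the Hnrnph genes, whose proteins bind runs of G in RNA, Hnrnph3 fell most. It had -0.86, -0.98 and -1.06 in CD4SP arrays and -1.18, -1.04 and -1.01 in CD8SP arrays, against 0.11, -0.06 and -0.06 in DP arrays. The groups were separated by more than 0.7 in both cases. The differences were -0.97 ± 0.09 in CD4SP (limma adjusted p = 1.28e-05) and -1.08 ± 0.09 in CD8SP, a 2.11-fold decrease (limma adjusted p = 5.23e-06). Hnrnph1 fell by 0.66 and Hnrnph2 by 0.64 in CD8SP, while their differences of -0.36 and -0.30 in CD4SP did not pass the test. Hnrnpf, which binds the same kind of sequence, fell by 0.28 in CD8SP and had a difference of -0.13 in CD4SP that did not pass.

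The other abundant nuclear hnRNPs fell by less than 2-fold. Hnrnpab had -0.62 in each of the 3 CD4SP arrays and -0.55, -0.51 and -0.50 in CD8SP arrays, against 0.03, -0.02 and -0.01 in DP arrays, which is the smallest within-group SD of the members (0.03). Its arrays did not overlap between DP and either single-positive group (limma adjusted p = 2.79e-05 in CD4SP), but with its highest-mean probe set alone the CD8SP difference was -0.20 and did not pass (limma adjusted p = 0.242). Hnrnpm, a splicing regulator with methionine-rich repeats, fell by 0.57 ± 0.10 in CD4SP and by 0.68 ± 0.10 in CD8SP. Hnrnpu, also called SAF-A and a scaffold attachment protein, fell by 0.43 in CD4SP and by 0.71 in CD8SP. Hnrnpc, which coats pre-mRNA at U-rich stretches, fell by 0.40 in CD4SP and by 0.57 in CD8SP. Hnrnpa0, Hnrnpa2b1, Hnrnpr, Hnrnpul1 and Hnrnpul2 also fell in both groups, by 0.24 to 0.56.

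Hnrnpk, a binder of C-rich sequence, fell by 0.33 in CD8SP and had a difference of -0.05 in CD4SP that did not pass. Hnrnpa1, a broadly acting splicing repressor, passed in neither: its difference was -0.01 in CD4SP and -0.18 in CD8SP, with a 95% interval of -0.52 to 0.16 in CD8SP. Hnrnpd, also called AUF1, binds AU-rich elements and acts in mRNA decay. Its differences of -0.28 in CD4SP and -0.32 in CD8SP did not pass, and its DP arrays were spread over 0.07, -0.37 and 0.29.

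Cell-cycle genes were lower in the same arrays. The mean over 13 cell-cycle genes lay between -1.46 and -1.13 in CD4SP arrays and between -0.76 and -0.51 in CD8SP arrays, against -0.10 to 0.17 in DP arrays. Of these 13 genes, 12 fell in CD4SP and 7 in CD8SP. The cell-cycle list was lowest in CD4SP, and the median of the SR and hnRNP genes was lowest in CD8SP. The mean over 10 genes of heat shock and tissue dissociation lay between 0.37 and 0.96 in CD4SP arrays and between 0.22 and 0.41 in CD8SP arrays, against -0.03 to 0.05 in DP arrays. The part of these lists in the result was not tested.

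**Figure D4:**
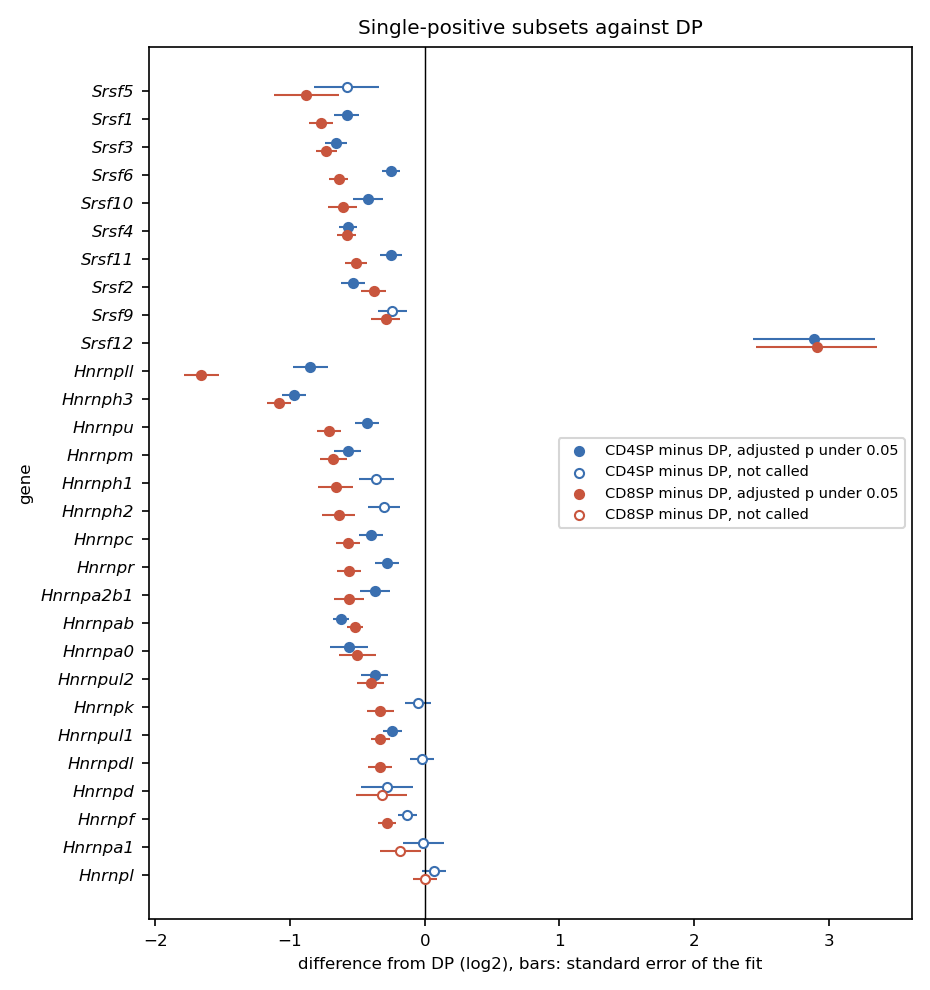
Difference from DP on the log2 scale for each of the 29 members in CD4SP and in CD8SP, with bars of 1 standard error of the fit. Filled points passed the test and open points did not, and both differences use the same 3 DP arrays. Hnrnpll is at -0.85 in CD4SP and at -1.66 in CD8SP, and Srsf12 lies far above 0 in both.

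Set directly against each other, the single-positive groups differed in 3 members, all higher in CD4SP than in CD8SP, and 26 did not pass the test. Of all genes, 7.78% were called higher and 4.91% lower in CD4SP than in CD8SP, so 3 of 29 (10.3%) is near that background. The difference was above 0 for 25 of the 29 members (86.2%, against 54.5% of all genes), and the arrays of the 2 groups did not overlap for 13 (44.8%, against 30.3%), with a median of 0.16 over the members and 0.03 over all genes. Of the 13 cell-cycle genes, 9 were lower in CD4SP than in CD8SP, and their part in the members' differences was not tested. Hnrnpll was 0.82 ± 0.13 higher in CD4SP than in CD8SP (limma adjusted p = 0.00289), and no array of one group reached the range of the other.

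Srsf6, an SR protein that promotes exon inclusion, stood at -0.28, -0.16 and -0.31 in CD4SP arrays, against -0.67, -0.63 and -0.62 in CD8SP arrays. These ranges did not overlap, and the difference was 0.39 ± 0.07 (limma adjusted p = 0.00477). With the probe set of highest mean alone it was 0.30 (limma adjusted p = 0.0746). Against DP, Srsf6 fell by 0.25 in CD4SP and by 0.64 in CD8SP, and the CD4SP fall was not seen with that single probe set, where the difference was 0.02. Hnrnpdl, which resembles Hnrnpd, stood at -0.05, 0.03 and -0.04 in CD4SP arrays, against -0.44, -0.30 and -0.25 in CD8SP arrays. Its difference of 0.31 ± 0.09 only just passed (limma adjusted p = 0.0435) and was lost in 16 of 24 alternative settings, among them the omission of any one CD4SP or CD8SP array.

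At the earlier step, DP against DN, the families did not move one way. There 5 members rose, 5 fell and 19 did not pass the test. Of all genes, 17.8% rose and 18.8% fell, so the members' shares of 17.2% in each direction were near the background. Arrays did not overlap for 18 members (62.1%, against 49.8% of all genes). The median difference was 0.08 over the members and 0.04 over all genes. The members that rose were Srsf5, Hnrnpa2b1, Hnrnph3, Hnrnpul1 and Srsf11, and those that fell were Hnrnpd, Srsf2, Srsf10, Srsf9 and Srsf3. The markers of myeloid, natural killer, B and gamma delta T cells given above were all higher in the DN arrays on average. In the test, 7 of 12 myeloid, 7 of 7 natural killer, 4 of 7 B cell and 3 of 3 gamma delta T cell markers were lower in DP than DN, and their part in the members' differences was not tested.

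Srsf5 had the largest rise that passed: -0.16, 0.05 and 0.11 in DP arrays, against -0.96, -0.70 and -0.72 in DN arrays. The groups did not overlap, with a difference of 0.79 ± 0.24 (limma adjusted p = 0.0235), which was lost without DN replicate 1 (0.71, limma adjusted p = 0.0735). Hnrnpa2b1, which binds and sorts RNA in the nucleus and cytoplasm, had 0.14, -0.08 and -0.06 in DP arrays, against -0.30, -0.55 and -0.43 in DN arrays, a difference of 0.43 ± 0.11 (limma adjusted p = 0.0104) that was 0.07 with its highest-mean probe set (limma adjusted p = 0.642). Hnrnph3 was higher by 0.36 ± 0.09 in DP (limma adjusted p = 0.00961) and was thus highest in DP among the 4 groups. Hnrnpul1 was higher by 0.29 and Srsf11 by 0.26, but the probe set of highest mean for Srsf11 gave -0.15.

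Among those that fell, Hnrnpd had 0.07, -0.37 and 0.29 in DP arrays, against 0.78, 0.48 and 0.67 in DN arrays. All DP arrays were below all DN arrays, and the difference was -0.65 ± 0.19 (limma adjusted p = 0.0184). That call was lost in 5 of 24 alternatives, among them without DN replicate 1 (-0.58, limma adjusted p = 0.0608). Of the 3 probe sets of Hnrnpd, 1458273_at was spread over 0.20, -1.06 and 0.87 in DP arrays. Srsf2 had 0.00, -0.05 and 0.05 in DP arrays, against 0.37, 0.41 and 0.48 in DN arrays, a difference of -0.42 ± 0.09 (limma adjusted p = 0.00417). Srsf10 fell by 0.37 and Srsf9 by 0.30. Of 24 alternatives, 13 ended the DP against DN call of Srsf9, and 7 each ended those of Srsf3, Srsf10 and Srsf11. Without DN replicate 1 only 1 member passed as lower in DP than DN, and likewise 1 without DP replicate 2. Srsf12 was not called: its DP arrays stood at -0.26, -0.07 and 0.33, against -2.40, -0.50 and -0.39 in DN arrays, and the difference of 1.10 ± 0.45 missed the threshold (limma adjusted p = 0.0793), which it passed with the arrays numbered 1 as a factor (limma adjusted p = 0.0201). One array, DN replicate 1, carried most of that difference, which was 0.44 without it.

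Probe sets of one gene disagreed most at this step, where 14 of the 91 were called higher and 18 lower in DP than DN, against 18.9% and 17.8% of all probe sets. Members with probe sets called in opposite directions numbered 4 of the 20 with several (20.0%), against 2.74% of the 9010 genes with several probe sets. A gene with more probe sets has more chances to hold opposite calls. These shares were not matched for the number of probe sets per gene, so they are not a like comparison. The 4 genes were Srsf3, Hnrnpab, Hnrnpc and Hnrnpu. Of the 6 probe sets of Srsf3, 4 were lower and 1 was higher in DP than DN, over a range of -0.87 to 1.05. The one that was higher, 1438215_at, had 0.15, -0.15 and 0.00 in DP arrays, against -1.01, -1.13 and -1.01 in DN arrays. The mean over the 6, -0.26 ± 0.08, therefore hides opposite patterns, and the same probe set fell in single-positive cells with the others. Hnrnpab had 1 higher and 2 lower of 7, from -0.51 to 0.30. Hnrnpc had 1 higher and 1 lower of 3, from -0.34 to 0.49, and Hnrnpu had 1 higher and 1 lower of 5, from -0.30 to 0.52. Which transcripts or transcript ends these probe sets detect was not examined here.

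**Figure D5:**
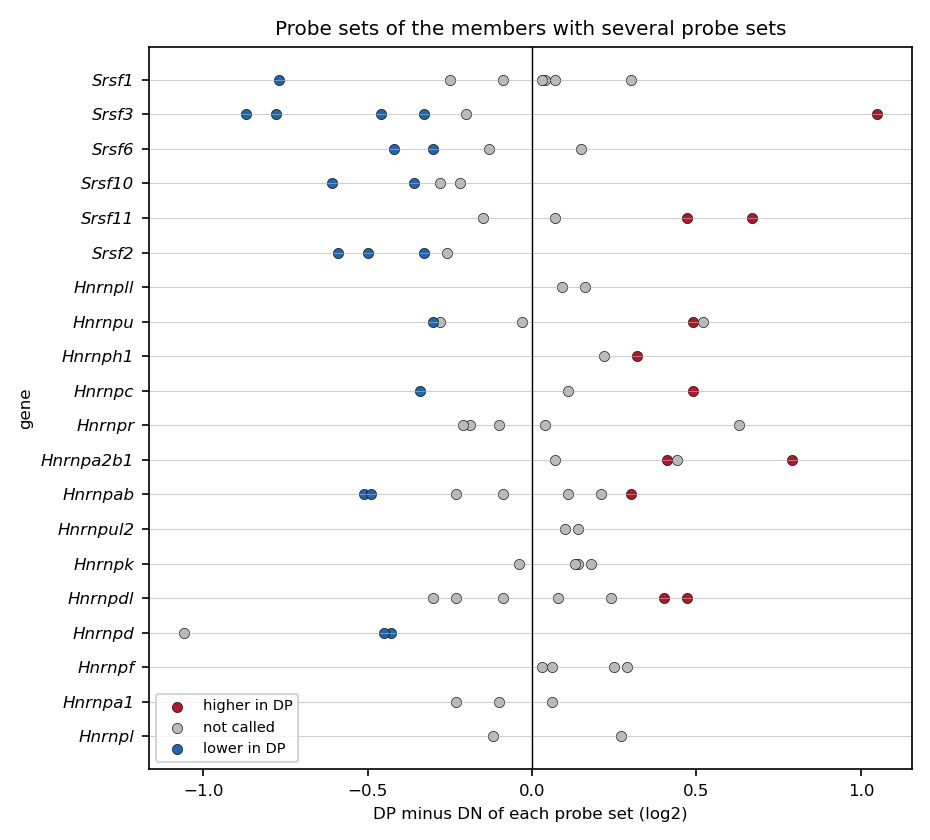
Difference DP minus DN on the log2 scale for each probe set (points) of the members with several probe sets. The probe sets of Srsf3 run from -0.87 to 1.05.

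Across the whole span, from DN to single-positive cells, most members ended lower. In CD4SP against DN, 16 members fell (55.2%, against 21.0% of all genes) and 1 rose (against 22.6%). In CD8SP against DN, 21 fell (72.4%, against 22.3%) and 1 rose (against 18.7%). The riser was Srsf12 in both, by 3.99 in CD4SP and by 4.01 in CD8SP (limma adjusted p = 3.29e-05 and 4.25e-05), and without DN replicate 1 by 3.34 and 3.36. Arrays did not overlap for 20 members in CD4SP against DN (69.0%, against 55.5% of all genes) and for 25 in CD8SP against DN (86.2%, against 49.7%). Srsf2 fell by 0.95, Hnrnpd by 0.92, Srsf3 by 0.92, Hnrnpa0 by 0.86 and Srsf10 by 0.79 in CD4SP against DN. In CD8SP against DN, Hnrnpll fell by 1.54, Srsf10 by 0.98, Hnrnpd by 0.96 and Srsf1 by 0.86, and Srsf3 was 2.00-fold lower. Hnrnpd thus passed the test in DP against DN and in both single-positive groups against DN, and in neither single-positive group against DP. Its DP against DN call was lost in 5 of 24 alternatives. By probe set, 6 of 91 were higher and 48 lower in CD4SP than DN (against 22.1% and 21.1% of all probe sets), and 2 were higher and 60 lower in CD8SP than DN (against 18.0% and 23.3%). Probe sets disagreed in these comparisons for Hnrnpa2b1, Hnrnpl and Srsf11 in CD4SP against DN, and for Hnrnpl in CD8SP against DN.

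The order of the 4 groups, read from the averaged probe sets, differed between members. Srsf2, Srsf3 and Srsf10 were highest in DN, lower in DP and lower again in both single-positive groups, with each of these steps called. For Srsf3 the probe sets disagreed on the step between DN and DP. The call of that step was lost in 7 of 24 alternatives for Srsf3 and for Srsf10. For Srsf2 none of these steps passed with its highest-mean probe set, where DP minus DN was -0.26 and CD8SP minus DP was 0.07. Hnrnph3, Hnrnpa2b1, Hnrnpul1 and Srsf11 were highest in DP, with DP called above each of the other 3 groups. The call of DP above DN was lost in 7 of 24 alternatives for Srsf11 and in 3 for Hnrnpa2b1. That of DP above CD4SP was lost in 6 for Srsf11 and in 4 each for Hnrnpa2b1 and Hnrnpul1. Srsf5 was likewise highest in DP, although its difference from CD4SP did not pass. Hnrnpll, Srsf1, Srsf4, Hnrnpm and Hnrnpu did not differ beyond the test between DP and DN, and were lower in both single-positive groups. For Hnrnpu the average between DP and DN joins probe sets called in opposite directions, from -0.30 to 0.52. Of the 7 probe sets of Srsf1, 1 was called lower in DP than DN, at -0.77.

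Other splicing genes were taken from lists of known roles. As background, 16.2% of all genes fell and 16.4% rose in CD4SP against DP. In CD8SP against DP 20.9% fell and 18.2% rose, and in DP against DN 18.8% fell and 17.8% rose. SR-related proteins, which carry arginine-serine stretches without being classical SR proteins, fell in part at the late step: of 16 measured, 7 fell and none rose in CD4SP against DP, and 11 fell and none rose in CD8SP against DP. In DP against DN, 8 of them rose and none fell. Rbm39, a U2AF-like factor, had differences of 0.97 in DP minus DN, -0.37 in CD4SP minus DP and -0.80 in CD8SP minus DP, all called. Pnn, a nuclear-speckle protein, fell by 0.83 in CD4SP and by 1.10 in CD8SP. The list of 21 other splicing regulators had 12 lower and 1 higher in CD4SP, and 17 lower and 2 higher in CD8SP, against DP. Tia1, which binds U-rich sequence next to splice sites, fell by 0.47 in CD4SP (limma adjusted p = 0.00175) and further in CD8SP (limma adjusted p = 6.45e-06), with a CD4SP minus CD8SP difference of 0.54, and the muscleblind gene Mbnl3 fell by 1.23 and by 0.95.

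The hnRNP proteins that go under other symbols fell in part: 5 of 13 were lower and none higher in each single-positive group against DP. Rbmx, also known as hnRNP G, fell by 0.93 in CD4SP and by 1.17 in CD8SP, and Pcbp2, also known as hnRNP E2, by 0.68 and by 0.54. The core spliceosome was covered by 3 lists. Of 9 U1, U2 and common snRNP proteins, 3 fell in CD4SP against DP, and in CD8SP 1 fell and 2 rose. Snrpf, a ring protein of the snRNP core, was 0.50 higher in CD8SP than in DP and Snrnp70, of the U1 particle, was 0.66 lower. Of the 13 proteins that recruit U2, 6 fell in CD4SP, and in CD8SP 5 fell and 1 rose. Of 14 tri-snRNP and catalytic-core proteins, 3 fell in CD4SP and 6 in CD8SP. Among all genes 16.2% fell in CD4SP and 20.9% in CD8SP. The 3 of 14 in CD4SP and the 1 of 9 in CD8SP are thus near or below that background. In DP against DN these 3 core lists had 7 of 9, 7 of 13 and 6 of 14 lower, and 1, 1 and 0 higher. The shares of all genes there were 18.8% lower and 17.8% higher.

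Some enzymes that modify SR and hnRNP proteins had large called differences. SR protein kinases phosphorylate the arginine-serine tail and so set where SR proteins reside in the cell. Clk3, a nuclear SR protein kinase, had -2.09, -2.16 and -2.06 in CD4SP arrays and -2.38, -2.27 and -2.19 in CD8SP arrays, against -0.10, 0.01 and 0.08 in DP arrays. It was also low in DN, at -1.99, -2.07 and -1.94, so only the DP arrays were high. The called differences of Clk3 were 2.00 in DP minus DN, -2.10 in CD4SP minus DP and -2.28 in CD8SP minus DP (limma adjusted p = 5.37e-08, 2.72e-08 and 1.28e-08). Srpk1, a mainly cytoplasmic SR protein kinase, ran the other way, at 1.45, 1.43 and 1.38 in CD4SP arrays and 1.09, 1.15 and 1.20 in CD8SP arrays, against 0.05, -0.07 and 0.02 in DP arrays. In DN arrays Srpk1 stood at 0.86, 0.98 and 0.84, so DP was its lowest group. Clk1 rose by 1.09 in DP against DN and fell by 0.52 in CD8SP against DP, and its difference of -0.11 in CD4SP did not pass. Over the 9 kinases and import receptors, 1 rose and 3 fell in CD4SP, and 1 rose and 5 fell in CD8SP, against DP. The shares of all genes were 16.4% and 16.2% in CD4SP, and 18.2% and 20.9% in CD8SP.

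Some arginine methyltransferases methylate the glycine-arginine stretches of hnRNPs. Of 7 arginine methyltransferases measured, 4 rose and none fell in each single-positive group against DP. In DP against DN 4 fell and none rose. Among all genes 16.4% rose in CD4SP and 18.2% in CD8SP against DP, and 18.8% fell in DP against DN. Carm1 had 1.52, 1.38 and 1.48 in CD4SP arrays and 1.55, 1.30 and 1.41 in CD8SP arrays, against -0.01, -0.03 and 0.04 in DP arrays. Its DN arrays stood at 1.60, 1.69 and 1.47, so Carm1, like Srpk1, was lowest in DP. Prmt5 rose by 0.30 in CD4SP and by 0.53 in CD8SP, and Prmt2 by 1.44 and by 1.07. Prmt1, the main enzyme of asymmetric arginine dimethylation, fell by 1.31 in DP against DN and passed in neither single-positive group against DP. Of 8 exon junction complex and nonsense-mediated decay genes, 3 fell in CD4SP and 6 in CD8SP, with none higher. The shares of all genes that fell were 16.2% and 20.9%. Smg1, a kinase of nonsense-mediated decay, a pathway that degrades many SR transcripts carrying a poison exon, fell by 0.59 in CD4SP and by 1.02 in CD8SP.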

How the data were processed

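The authors deposited 1 log2 value per probe set and array (45101 probe sets, 12 arrays). No source used here states the log base, and base 2 was assumed. MAS5 is named per the submitters' processing notes, with no version or role. As the values show, each probe set was centred on its DP average, so signal levels and detection are lost. No further normalization was applied. Control probe sets (64) and those with several symbols (932) or none were left out, and the probe sets of a gene were averaged. Gene symbols came from the platform annotation, and the symbols of all 29 members matched RefSeq by gene ID. The number of arrays limits the precision.

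Group means of the 12 arrays were fitted with limma 3.58.1 (lmFit, eBayes) in R 4.3.3, with Benjamini-Hochberg adjustment over 18193 genes in each of 6 comparisons. The fit was tested on simulated data. Errors are standard errors of the fit. Alternatives changed the choice and filter of probe sets, the normalization between arrays, the variance model, array weights, the arrays fitted and the replicate number as a block. Named were up to 8 called members per direction with the largest non-overlapping difference, every member with disagreeing probe sets or called between CD4SP and CD8SP, and up to 4 genes of each other list with the lowest adjusted p. The other members were named, after their values were seen, to account for the whole family. Members and lists were chosen with earlier results of these data known.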

Additional observations from a re-analysis of the deposited data

Results flagged for a closer look

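The change from DP differed between the CD4SP and the CD8SP lineage in 3 members, by limma's test of the difference itself. These are 10.3% of the members, near the 7.78% of all genes called higher and 4.91% called lower in CD4SP than CD8SP. Hnrnpll fell by 0.85 in CD4SP and by 1.66 in CD8SP, a difference of 0.82 (limma adjusted p = 0.00289), lost only with quantile normalization (0.55, limma adjusted p = 0.357). Srsf6 fell by 0.25 in CD4SP and by 0.64 in CD8SP, a difference of 0.39 (limma adjusted p = 0.00477), which missed the threshold with the highest-mean probe set (0.30, limma adjusted p = 0.0746). Hnrnpdl had -0.02 in CD4SP and fell by 0.33 in CD8SP, a difference of 0.31 (limma adjusted p = 0.0435) that was lost in 16 of 24 alternatives.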

How the results depend on the processing

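Counts of members called were recomputed under 24 alternatives. In 1 of them the highest-mean probe set was chosen on the DP-centred values, which favours probe sets high in the other groups relative to DP. Counts under that choice therefore lean toward fewer falls from DP. In DP against DN, the 5 higher became 3 with the highest-mean probe set and 0 with quantile normalization (3 to 5 leaving out 1 array). The 5 lower became 1 with quantile normalization, 3 with the 6 arrays alone and 3 without DN replicate 1 and CD8SP replicate 1 (1 to 6 leaving out 1 array). In CD4SP against DP, the 18 lower became 6 with quantile normalization (13 to 21 leaving out 1 array). In CD8SP against DP, the 25 lower became 16 with the highest-mean probe set and 11 with quantile normalization (23 to 25 leaving out 1 array). The 3 higher in CD4SP than CD8SP became 1 with the highest-mean probe set, 5 with the smallest-SD probe set, 8 with the SD filter, 0 with quantile normalization, 5 with array weights and 7 with the arrays numbered 1 as a factor (2 to 4 leaving out 1 array), and 0 were lower throughout. Against DN, the 16 lower in CD4SP became 10 and the 21 lower in CD8SP became 11 with quantile normalization (15 to 17 and 17 to 21 leaving out 1 array). The single riser in each single-positive group, Srsf12, was lost to the SD filter (0 in CD4SP and in CD8SP against DP and DN), and the highest-mean probe set gave 2 risers against DN in each. Residuals correlated at 0.11 to 0.16 among arrays numbered 1, at -0.03 to 0.09 and 0.02 to 0.14 among those numbered 2 and 3, and at -0.16 to 0.08 between different numbers. The arrays numbered 1 thus deviated together, and 10 of 12 arrays correlated best with their own number, a hint from the data, since the labels name no shared source and not every pair reached 0.1. With the replicate block the counts lower than DP were 19 in CD4SP and 24 in CD8SP.

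Differences called in at least 1 of the 2 settings changed sign only with another choice or filter of probe sets. Differences called in neither, some of which also changed sign, are not listed. The highest-mean rule leans toward probe sets that are high in DN and single-positive arrays relative to DP, so its changes of sign follow in part from the selection. With the highest-mean probe set, DP minus DN was -0.34 for Hnrnpc, -0.30 for Hnrnpu and -0.15 for Srsf11. CD4SP minus DP was 0.02 for Srsf6, and CD8SP minus DP was 0.07 for Srsf2 (also 0.07 without _x and _s probe sets, which leaves the same probe set). CD4SP minus DN was -0.31 for Hnrnpa2b1, -0.45 for Srsf11 and 0.17 for Srsf6. With the smallest-SD probe set, DP minus DN was -0.30 for Hnrnpu, and CD4SP minus DN was -0.31 for Hnrnpa2b1, -0.36 for Hnrnpl and -0.21 for Srsf11. CD8SP minus DN was -0.54 for Hnrnpl. With the SD filter, Hnrnpl was -0.24 in CD4SP minus DP, -0.36 in CD4SP minus DN and -0.54 in CD8SP minus DN. Why the probe sets of a gene differ was not tested. Of 97 called member differences, 35 stayed past the threshold in every alternative that gave a value (4 of these, all of Srsf12, had none under the SD filter) and 62 did not. A choice or filter of probe sets ended the calls of 6 members in CD4SP and 9 in CD8SP against DP. Signal over background is lost in the deposited values, so a dim probe set could not be told from a bright one.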

Other observations

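Probe sets annotated to several genes were outside the rule, and 7 of them carried Hnrnpa1 or Hnrnpa3 beside predicted genes or pseudogenes. Probe set 1423531_a_at, shared by Hnrnpa1, Hnrnpa1l2-ps2, Gm10052 and Gm5643, averaged 0.56 ± 0.17 in DN arrays, 0.00 ± 0.23 in DP arrays, -0.33 ± 0.03 in CD4SP arrays and -0.29 ± 0.17 in CD8SP arrays (SD, n = 3 each). Probe set 1452712_at, shared by Hnrnpa3 and Gm6793, averaged 0.09 ± 0.14 in DN arrays, 0.00 ± 0.17 in DP arrays, -0.42 ± 0.08 in CD4SP arrays and -0.80 ± 0.10 in CD8SP. Probe set 1452774_at, shared by the same genes, averaged -0.40 ± 0.24 in DN arrays, 0.00 ± 0.26 in DP arrays, -0.47 ± 0.13 in CD4SP arrays and -1.19 ± 0.26 in CD8SP. Signal of these probe sets cannot be assigned to 1 of the genes they name, and they were not tested.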
